A study of Mus musculus with 6 samples.

Results

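The TNF superfamily ligands, their receptors and the TRAF adaptors were followed in type 2 conventional dendritic cells (cDC2s) of the mouse spleen, in wild-type cells and in cells deficient in the transcription factor IRF4. The genes were taken by symbol from the deposited count table: every Tnfsf and Tnfrsf gene and Traf1 to Traf7, plus 10 genes of the family that carry other names (Tnf, Lta, Ltb, Ltbr, Cd40, Cd70, Cd27, Fas, Tradd and Ripk1). Of 44 matching rows, 42 had at least 10 counts over the 6 libraries and were kept, out of 14535 gene rows in all. Cd70, with 6 counts, and Tnfrsf8, with 9, fell under that minimum. The 42 genes comprise 13 ligands, 20 receptors and 9 adaptors. Tnfsf11, Tnfrsf17, Tnfrsf19 and Tnfrsf11b are not analysed here.

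RNA-seq libraries came from 3 wild-type (WT) samples and 3 samples of CD11c-Cre Irf4fl/fl mice, all on the C57BL/6 strain. In the latter, called IRF4-deficient, Cre recombinase driven by the CD11c promoter deletes the floxed part of Irf4 in cells that express CD11c, a group wider than cDC2s. Neither age, sex, treatment nor the sort gate of the cells is given in the labels, and no group carries Cre alone, so Cre and the floxed allele cannot be told apart from the deletion. Whether replicates are separate animals is not stated, so the p-values rest on a spread between libraries that may be technical. Values of single libraries are listed in the order of replicates 1, 2 and 3.

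Ligands of the TNF superfamily are trimeric proteins of the cell surface, several of which are also shed, and each binds 1 or a few receptors of the TNF receptor superfamily. Receptors with a death domain recruit TRADD or FADD and can lead to cell death or to NF-kB, while the others bind TRAF proteins directly and signal to canonical or noncanonical NF-kB and to the JNK kinases. On dendritic cells the family carries signals both ways: CD40 receives help from T cells, OX40L and the CD137 ligand costimulate T cells, and lymphotoxin beta receptor signals maintain splenic cDC2s.

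Total counts ran from 7421605 to 11459920 per library. Levels are given as CPM, which corrects counts for depth with TMM factors. Irf4 itself was at 90.8, 65.3 and 84.0 CPM in the IRF4-deficient group and at 291.8, 295.8 and 345.0 CPM in the WT group, so the targeted gene matched each label. The 11 cDC2 markers were all detected, although Clec10a and Mgl2 were low. Their summed level was close in both groups but hides single markers that moved apart: Cd4 (4.23-fold), Zbtb46, Flt3 and H2-Ab1 were called lower, Itgam (3.03-fold) and Itgax higher, and 5 were not called. Summed markers of cDC1s, the other conventional subset, ran from 282.7 to 373.2 CPM in IRF4-deficient libraries and from 217.5 to 228.4 CPM in WT, with 4 of 6 called higher (Irf8, Tlr3, Clec9a and Xcr1) and Batf3 lower. Monocyte markers summed to between 2066 and 2515 CPM in IRF4-deficient libraries and to between 908.6 and 1147 CPM in WT, with 7 of 8 called higher. Red pulp macrophage markers summed to 1867, 2591 and 3346 CPM in the IRF4-deficient group against 1276 to 1638 CPM in WT, with 7 of 12 called higher and 1 lower. Markers of mature dendritic cells summed to between 642.4 and 705.0 CPM in IRF4-deficient libraries and to between 1212 and 1494 CPM in WT. Of the 10 tested, 7 were called lower, Socs2 (11.4-fold) and Ccr7 (8.09-fold) the most, and 3 were not called. WT replicate 3 stood apart in 14 immediate early genes, which summed to 1417 CPM there, to 4384 and 3769 CPM in the other WT libraries and to between 2475 and 2982 CPM in IRF4-deficient ones. The part of these cells and programmes in the results that follow was not tested, except where a covariate is named. In bulk RNA, fewer cells of a type and less RNA per cell cannot be told apart.

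Receptors that bind TRAF proteins were the group with the most decreases in IRF4-deficient cDC2s. Of 12 such receptors, 6 fell (Tnfrsf18, Tnfrsf4, Tnfrsf13b, Tnfrsf11a, Tnfrsf14 and Tnfrsf1b) and none rose, with a median log2 fold change of -0.76. Among 10 tested ligands, 3 rose (Tnfsf4, Tnfsf12 and Ltb) and 1 fell (Lta). The 4 tested death domain receptors held 1 increase (Tnfrsf21) and 1 decrease (Fas), and of the 9 adaptors 2 fell (Traf1 and Traf2). In all, 38 of the 42 genes passed the filter on low counts, 4 were called higher and 10 lower by edgeR (adjusted p under 0.05, Benjamini-Hochberg), and 24 were not called. Over all 11934 genes tested, 20.4% were called, 9.87% higher and 10.5% lower. The share called among the 38 was thus above the background for decreases and near it for increases, and their median log2 fold change was -0.31 against 0.0025 over all genes tested. Lta, Tnfsf4 and Tnfsf12 passed the filter through the group in which they are high, so their difference is in part set by it, and in the fit with no filter 4 genes were again called higher and 10 lower. The groups did not overlap for 20 of the 38, of which 16 were lower in IRF4-deficient cells and 4 higher. Over all genes tested, 35.6% of genes did not overlap, 18.1% lower and 17.5% higher.

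Among the 14 called genes, 6 were called in all 17 alternative analyses: Lta, Tnfsf4, Tnfrsf11a, Tnfrsf18, Tnfrsf1b and Traf1. The other 8 were not called once an index of the red pulp macrophage markers entered as a covariate. With it the log2 fold change was larger in size for Fas, Ltb and Tnfrsf14 and smaller for Tnfsf12, Tnfrsf21, Tnfrsf4, Tnfrsf13b and Traf2, and the SE was larger for all 8. That index itself separates the groups, and with it 422 genes were called higher and 485 lower over the whole table, and 1 family gene was called higher and 5 lower. Without IRF4-deficient replicate 2, 6 were called lower in place of 10.

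**Figure D1:**
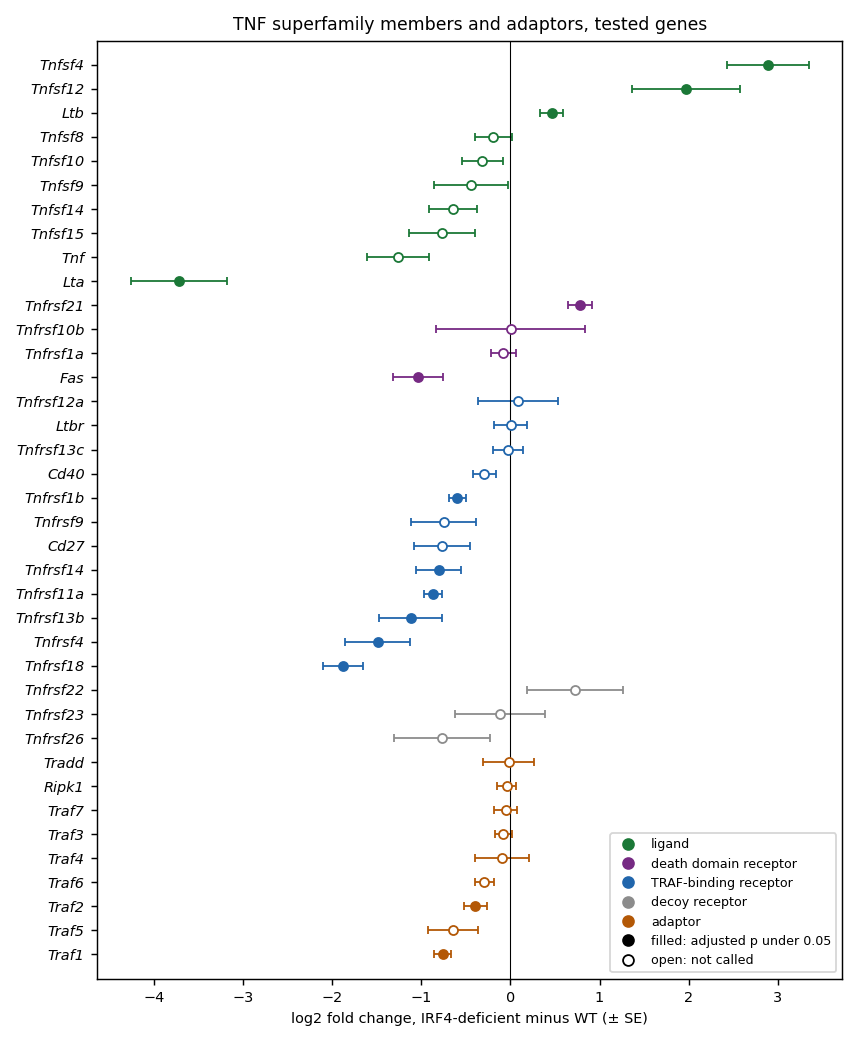
Log2 fold change (IRF4-deficient minus WT, horizontal axis, ± SE) of the 38 tested family genes, grouped by role; filled points are called at an adjusted p under 0.05. The 6 filled TRAF-binding receptors all lie left of 0, from -1.88 for Tnfrsf18 to -0.60 for Tnfrsf1b, whereas the 4 filled ligands run from -3.72 for Lta to 2.89 for Tnfsf4.

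Tnf, Lta and Ltb stand side by side on GRCm38 chromosome 17 and code for TNF, lymphotoxin alpha and lymphotoxin beta. Ltb lies on the plus strand at 35194439 to 35196320, Tnf on the minus strand at 35199381 to 35202007 and Lta on the minus strand at 35203165 to 35205351. Tnf and Lta are separated by 1157 bases. The 250 bases before the RefSeq start of each gene (build GRCm38.p6, read 5′ to 3′ in the direction of the gene) are shown because Ltb rose and Lta fell. Capitals mark the single kappa B match found among them.
Ltb (chr17:35194257-35194506, plus strand): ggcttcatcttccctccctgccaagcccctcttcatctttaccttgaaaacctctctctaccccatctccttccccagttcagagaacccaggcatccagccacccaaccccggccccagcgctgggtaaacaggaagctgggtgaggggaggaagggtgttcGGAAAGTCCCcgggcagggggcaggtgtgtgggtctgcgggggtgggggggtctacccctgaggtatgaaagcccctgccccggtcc
Tnf (chr17:35202008-35202257, minus strand): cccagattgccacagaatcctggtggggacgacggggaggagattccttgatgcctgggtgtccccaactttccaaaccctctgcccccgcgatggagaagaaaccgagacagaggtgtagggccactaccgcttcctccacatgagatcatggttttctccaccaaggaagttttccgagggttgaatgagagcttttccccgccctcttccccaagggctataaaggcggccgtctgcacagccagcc
Lta (chr17:35205352-35205601, minus strand): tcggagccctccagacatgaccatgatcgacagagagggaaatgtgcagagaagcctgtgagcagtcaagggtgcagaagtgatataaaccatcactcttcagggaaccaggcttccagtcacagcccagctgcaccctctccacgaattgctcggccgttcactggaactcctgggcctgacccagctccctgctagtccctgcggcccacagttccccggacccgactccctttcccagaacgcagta
A set of motifs was searched on both strands of windows from 250 bases before to 50 after a start: the ETS-IRF composite element EICE (GGAA, any 2 bases, GAAA), the interferon response element ISRE (GAAA, any 2 bases, GAAA), the AP-1 element (TGA, any base, TCA) and the kappa B element (GGGA, any 2 bases, TTCC). Apart from the kappa B match of Ltb, no match lay in the windows of these 3 genes. Of all 32851 windows in the RefSeq table, 1.47% held a kappa B match.

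Lta was the family gene with the strongest decrease. The IRF4-deficient libraries held 0.184, 0.371 and 1.45 CPM, and the WT libraries 7.61, 11.4 and 7.24 CPM. Every IRF4-deficient library was below every WT library, and IRF4-deficient replicate 3 held most of what remained. The 18 counts left in IRF4-deficient libraries against 233 in WT gave a depth-scaled ratio of 0.0707 (95% exact binomial interval 0.0411 to 0.114, counting error only). The fitted log2 fold change was -3.72 (SE 0.54, adjusted p = 5.04e-05), -4.98 without IRF4-deficient replicate 3 and -6.46 with the red pulp index. Lymphotoxin alpha acts as a soluble trimer on the TNF receptors and, joined to lymphotoxin beta, on the lymphotoxin beta receptor.

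Ltb, whose product anchors that heterotrimer in the membrane, rose slightly. It was at 66.5, 63.2 and 60.1 CPM in the IRF4-deficient group and at 47.4, 41.8 and 48.8 CPM in the WT group, with no overlap and little spread within either group. The 1.38-fold higher level (log2 fold change 0.46, SE 0.13, adjusted p = 0.0124) was not called without WT replicate 2 (0.0902) or with the red pulp index (0.0850), in a range of 0.00496 to 0.0902 over the alternatives. With that index the log2 fold change was 0.64 (SE 0.22). Per length, Ltb was at 41.7 ± 2.09 RPKM and Lta at 0.483 ± 0.493 RPKM in IRF4-deficient cells, compared with 30.4 ± 2.43 and 6.32 ± 1.65 RPKM in WT (mean ± SD, n = 3 each). Ltbr, the receptor of the heterotrimer, was not called, with 18.7, 23.5 and 26.8 CPM in IRF4-deficient cells and 26.0, 22.3 and 20.5 CPM in WT (log2 fold change 0.0032, SE 0.19, adjusted p = 0.993).

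Tnf, the inflammatory cytokine that binds Tnfrsf1a and Tnfrsf1b, just missed the threshold. The IRF4-deficient libraries held 35.1, 28.3 and 51.9 CPM, and the WT libraries 99.0, 120.7 and 55.7 CPM. The groups did not overlap, but IRF4-deficient replicate 3 and WT replicate 3 came close to each other. The log2 fold change was -1.26 (SE 0.35, adjusted p = 0.0507), and Tnf was called in 7 of 17 alternatives, whose adjusted p ran from 8.78e-05 to 0.192. Without WT replicate 3, the library low in immediate early genes, it was -1.52 (adjusted p = 8.78e-05), and with an immediate early index as covariate -1.09 (adjusted p = 0.0184). Egr1, an immediate early gene, stood at 72.0 CPM in WT replicate 3 against 833.8 and 672.3 CPM in WT replicates 1 and 2. Lta in WT replicate 3 was near WT replicate 1, unlike Tnf and Egr1.

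**Figure D2:**
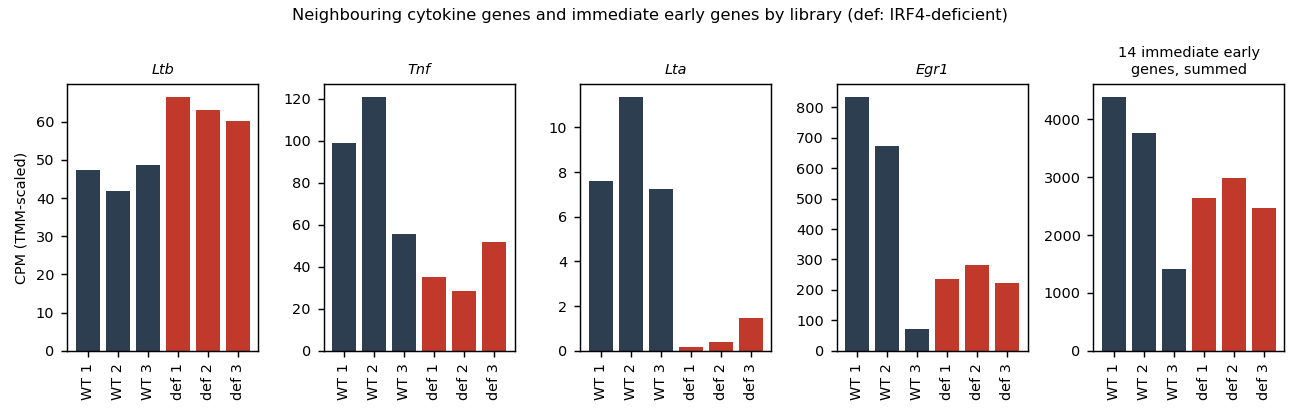
CPM (vertical axes, from 0) of Ltb, Tnf, Lta, Egr1 and the sum of 14 immediate early genes in each library; def stands for IRF4-deficient, and each bar is 1 library. Lta is at most 1.45 CPM in IRF4-deficient libraries and at least 7.24 CPM in WT, Ltb is higher in all 3 IRF4-deficient libraries, and Tnf in WT replicate 3 (55.7 CPM) is near IRF4-deficient replicate 3 (51.9 CPM).

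Tnfsf4 codes for OX40L, a costimulatory ligand that acts on T cells through OX40. It was the family gene with the strongest increase. The level was 6.17, 9.02 and 7.57 CPM in IRF4-deficient cells and 0.415, 1.09 and 1.50 CPM in WT, so even the highest WT library was well below the lowest IRF4-deficient one. The counts summed to 208 against 26, a depth-scaled ratio of 7.32 (95% interval 4.85 to 11.5, counting error only), and the log2 fold change was 2.89 (SE 0.46, adjusted p = 1.22e-04). Tnfsf18, which codes for the GITR ligand, lies 76244 bases from Tnfsf4 on the same strand of chromosome 1 (Tnfsf4 at 161395409 to 161418410). Tnfsf18 did not pass the filter, with 50 counts in IRF4-deficient cells and 13 in WT, a ratio of 3.52 (95% interval 1.88 to 7.06, counting error only). Its groups overlapped, at 2.12, 0.618 and 2.45 CPM in IRF4-deficient libraries and at 0.138, 0.546 and 0.820 CPM in WT. The adjusted p was 0.157 in the edgeR fit without a filter.

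The receptors of these 2 ligands are neighbours too. Tnfrsf4, which codes for OX40, lies at 156013843 to 156016612 and Tnfrsf18, which codes for GITR, at 156026164 to 156028895 on the plus strand of chromosome 4, 9551 bases apart. Both receptors costimulate T cells, on which they are best known.

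Tnfrsf18 fell from 23.8, 35.0 and 38.2 CPM in WT replicates 1 to 3 to 6.90, 9.15 and 10.4 CPM in IRF4-deficient ones. The highest IRF4-deficient library was below the lowest WT library, and the 3.69-fold lower level had the smallest adjusted p in the family (log2 fold change -1.88, SE 0.22, adjusted p = 4.41e-06). An antisense gene, Gm16008, overlaps 27.2% of the exon bases of Tnfrsf18, and reads of the pair cannot be told apart without a stated strand setting.

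Tnfrsf4 fell from 13.3, 16.2 and 9.56 CPM in WT to 7.55, 2.10 and 4.01 CPM in IRF4-deficient libraries, 2.81-fold lower on average (log2 fold change -1.49, SE 0.37, adjusted p = 0.00736). Its libraries spread widely in both groups without overlapping. With the red pulp index the log2 fold change was -0.92 (adjusted p = 0.430, in a range of 4.96e-04 to 0.430 over the alternatives). Tnfrsf4 RNA was called lower and the RNA of its ligand, Tnfsf4, higher, and a link between these calls was not tested. T cell markers summed to between 40.1 and 57.0 CPM in IRF4-deficient cells and to between 31.3 and 46.2 CPM in WT, and of the 7 tested 2 were called higher and none lower.

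Tnfsf12, which codes for TWEAK, rose from a very low level, 0.830, 1.73 and 0.273 CPM in WT, to 3.59, 1.85 and 6.35 CPM in the IRF4-deficient group. The groups barely separated, since IRF4-deficient replicate 2 was next to WT replicate 2. The log2 fold change was 1.97 (SE 0.61, adjusted p = 0.0270). The call was lost with limma-voom, with the red pulp index and without IRF4-deficient replicate 3, WT replicate 1 or WT replicate 3 (adjusted p 0.0526, 0.624, 0.148, 0.0888 and 0.121, in a range of 0.0161 to 0.624), and the log2 fold change was 2.80 without WT replicate 2 and 0.99 (SE 0.89) with the red pulp index. A read-through gene with Tnfsf13, Tnfsfm13, shares 48.3% of the exon bases of Tnfsf12, so the counting could have split their reads. Tnfrsf12a, which codes for the TWEAK receptor Fn14, was not called and stayed between 1.91 and 4.08 CPM in all libraries.

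The B cell survival ligands BAFF (Tnfsf13b) and APRIL (Tnfsf13) did not pass the filter. Tnfsf13b had 42 counts in IRF4-deficient cells and 13 in WT, a depth-scaled ratio of 2.95 (95% interval 1.56 to 6.00). Tnfsf13 had 28 and 10 counts, a ratio of 2.56 (1.21 to 5.91), and shares 73.6% of its exon bases with other genes, Tnfsfm13 among them. These intervals cover counting error only, and in the fit without a filter the adjusted p was 0.209 for Tnfsf13b and 0.382 for Tnfsf13.

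The other 5 tested ligands were not called. Tnfsf8, the CD30 ligand, stood at 13.7, 16.9 and 13.3 CPM in IRF4-deficient cells and at 19.1, 14.8 and 16.4 CPM in WT, with overlapping groups. Tnfsf10 (TRAIL), a ligand that can trigger cell death, was at 10.9, 10.1 and 10.02 CPM against 12.6, 14.8 and 11.2 CPM, a log2 fold change of -0.32 (SE 0.23, adjusted p = 0.377). Tnfsf14 (LIGHT), which binds HVEM and the lymphotoxin beta receptor, was at 6.99, 5.44 and 7.24 CPM against 9.82, 11.4 and 9.56 CPM. The groups of Tnfsf10 and Tnfsf14 did not overlap, and for Tnfsf14 the log2 fold change was -0.64 (SE 0.27, adjusted p = 0.102). Tnfsf15 (TL1A) and Tnfsf9 (the CD137 ligand) had log2 fold changes of -0.77 and -0.44 (adjusted p = 0.169 and 0.517), with overlapping groups.

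Tnfrsf21, or death receptor 6, was the receptor that rose. It went from 56.7, 61.1 and 49.2 CPM in WT to 83.5, 93.2 and 111.1 CPM in IRF4-deficient cells, with a clear gap between the groups. The level was 1.72-fold higher (log2 fold change 0.78, SE 0.13, adjusted p = 2.06e-04). The IRF4-deficient libraries rank in the same order for Tnfrsf21 and for the summed red pulp macrophage markers. That order is shared by the summed markers of monocytes (2066, 2421 and 2515 CPM), plasmacytoid dendritic cells, T cells, NK cells and plasma cells. A link of Tnfrsf21 to any of these was not tested. With the red pulp index the log2 fold change of Tnfrsf21 was 0.35 (adjusted p = 0.367, in a range of 9.51e-07 to 0.367 over the alternatives).

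Fas, the death receptor for FasL (GRCm38 chromosome 19, 34290666 to 34327772), fell 2.05-fold, from 13.8, 13.8 and 11.8 CPM in WT to 6.90, 4.08 and 8.13 CPM in IRF4-deficient libraries. No library of one group reached the other (log2 fold change -1.04, SE 0.28, adjusted p = 0.0115). The adjusted p was 0.0540 without IRF4-deficient replicate 2, 0.0503 without WT replicate 2 and 0.156 with the red pulp index, in a range of 0.00494 to 0.156. With that index the log2 fold change was -1.24 (SE 0.50). Tnfrsf1a, the death domain receptor for TNF, was at 45.7, 57.7 and 48.1 CPM against 58.4, 46.9 and 55.0 CPM and was not called (log2 fold change -0.08, SE 0.14, adjusted p = 0.745). Tnfrsf10b, the TRAIL receptor, stayed under 3.4 CPM in every library, and Tnfrsf25, the receptor for TL1A, had 14 counts in IRF4-deficient cells and 12 in WT.

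The other TNF receptor, Tnfrsf1b, binds TRAF proteins rather than TRADD. It fell from 225.1, 278.8 and 237.1 CPM in WT to 148.5, 169.6 and 172.9 CPM in IRF4-deficient replicates. The groups were well apart, and the level was 1.51-fold lower (log2 fold change -0.60, SE 0.10, adjusted p = 2.27e-04). Tnfrsf11a, which codes for RANK (chromosome 1, 105780718 to 105847981), fell 1.83-fold from 128.3, 140.4 and 137.8 CPM to 76.0, 69.3 and 77.3 CPM (log2 fold change -0.87, SE 0.10, adjusted p = 4.95e-06). RANK is a survival receptor of dendritic cells, and here the replicates of each group lay close together, with an SD of 4.27 CPM in IRF4-deficient cells and 6.34 CPM in WT.

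Tnfrsf14 codes for HVEM, which binds LIGHT and lymphotoxin alpha as well as BTLA, a receptor outside the superfamily. It stood at 6.99, 9.02 and 10.1 CPM in IRF4-deficient cells and at 11.3, 15.5 and 18.7 CPM in WT replicates, so the highest IRF4-deficient library was just under the lowest WT one. It was called lower at an adjusted p of 0.0297 (log2 fold change -0.80, SE 0.25). Without IRF4-deficient replicate 1 or 2, or WT replicate 2 or 3, the adjusted p was 0.114, 0.0620, 0.0921 and 0.162, and with the red pulp index 0.201, in a range of 0.0173 to 0.201. The log2 fold change with that index was -1.11 (SE 0.48).

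The windows of 2 called genes, Tnfrsf1b and Tnfrsf14, held an ISRE match. For Tnfrsf14 the window lies inside the GENCODE M21 gene, which spans 154921933 to 154928563 on the minus strand and so starts further upstream. The 250 bases before the RefSeq start of each gene follow with the match in capitals (as its reverse complement).
Tnfrsf1b (chr4:145246871-145247120, minus strand): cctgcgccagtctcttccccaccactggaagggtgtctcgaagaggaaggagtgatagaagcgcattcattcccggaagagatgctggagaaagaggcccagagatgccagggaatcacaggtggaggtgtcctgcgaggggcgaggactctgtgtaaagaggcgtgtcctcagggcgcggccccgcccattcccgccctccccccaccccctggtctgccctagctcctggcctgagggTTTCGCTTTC
Tnfrsf14 (chr4:154928078-154928327, minus strand): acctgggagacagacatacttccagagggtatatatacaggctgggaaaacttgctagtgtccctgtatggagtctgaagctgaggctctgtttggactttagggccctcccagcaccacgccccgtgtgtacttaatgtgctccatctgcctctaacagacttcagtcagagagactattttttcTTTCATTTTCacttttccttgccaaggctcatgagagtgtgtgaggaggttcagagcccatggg
The ISRE letters were found in 2 of the 12 windows of called genes and in 3.44% of all windows. Genes not called or not tested held them in 2 of 26 windows, those of Ripk1 and Tnfsf13b. No window was available for the called genes Tnfsf4 and Tnfsf12. An EICE match was in none of the 38 windows that cover 34 of the 42 genes, and in 2.72% of all windows. Among called genes, AP-1 letters were in the window of Fas alone, and among the genes not called or not tested in 5 of 26 windows. These 5 windows belong to 4 of 22 genes, since the 2 windows of Tnfsf13b overlap and hold the same match. Of all windows, 7.81% held them. A match describes letters and is no evidence of binding, and a window without one says only that these letters are not in it.

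Tnfrsf13b, which codes for TACI, a receptor for BAFF and APRIL best known on B cells, stood at 4.42, 3.58 and 3.01 CPM in IRF4-deficient cells and at 8.71, 5.18 and 10.4 CPM in WT replicates. It was called lower (log2 fold change -1.12, SE 0.36, adjusted p = 0.0305). The call was lost with limma-voom, without IRF4-deficient replicate 2 or 3, without WT replicate 1 or 3 and with the red pulp index (adjusted p 0.0719, 0.0694, 0.0745, 0.0896, 0.162 and 0.837, in a range of 0.0165 to 0.837), and with that index the log2 fold change was -0.37. B cell markers summed to 140.9, 71.4 and 122.1 CPM in WT replicates 1 to 3 and to between 103.1 and 136.3 CPM in IRF4-deficient libraries. The lowest WT library, replicate 2, is the same as for Tnfrsf13b, the highest is not, and a link was not tested. Of the 7 B cell markers tested, Ms4a1 was called lower (2.08-fold, adjusted p = 8.93e-04), Cd79b higher (1.74-fold, adjusted p = 0.00915) and 5 were not called. Plasma cell markers summed to 60.3, 36.0 and 56.0 CPM in WT replicates and to between 34.4 and 46.3 CPM in IRF4-deficient libraries, with overlap. Of the 3 tested, Jchain was called lower (2.445-fold, adjusted p = 0.0454) and 2 were not called, and a link to Tnfrsf13b was not tested. Tnfrsf13c, the BAFF receptor, was not called, at 26.9, 31.6 and 29.6 CPM against 29.3, 25.4 and 35.5 CPM (log2 fold change -0.03, SE 0.17, adjusted p = 0.928).

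Cd40, the receptor for T cell help, was not called. It stood at 68.8, 61.4 and 65.3 CPM in IRF4-deficient cells and at 67.1, 92.9 and 79.2 CPM in WT replicates 1 to 3, and the groups overlapped through WT replicate 1. The log2 fold change was -0.29 (SE 0.13, adjusted p = 0.123), and -0.40 without that library (adjusted p = 0.0479, in a range of 0.0479 to 0.606). Without WT replicate 2 it was -0.17 (adjusted p = 0.525). Cd27, the receptor for CD70, was at 6.17, 9.02 and 6.79 CPM against 7.61, 10.7 and 19.1 CPM, where WT replicate 3 is high. Its log2 fold change was -0.77 (SE 0.32, adjusted p = 0.0968), and -1.02 without WT replicate 1 (adjusted p = 0.0309, in a range of 0.0309 to 0.748). Without WT replicate 3, the high library, it was -0.34 (adjusted p = 0.566). Tnfrsf9, or CD137, was at 9.11, 6.30 and 2.34 CPM against 10.1, 11.4 and 8.61 CPM, with wide spread among the IRF4-deficient libraries. Its log2 fold change was -0.75 (SE 0.37, adjusted p = 0.174), and -1.22 without IRF4-deficient replicate 1 (adjusted p = 0.0350, in a range of 0.0350 to 0.803). Without IRF4-deficient replicate 3 it was -0.38 (adjusted p = 0.420). The decoy receptors that lack a signalling domain, Tnfrsf22, Tnfrsf23 and Tnfrsf26, stayed between 1.10 and 4.69 CPM, and none of the 3 was called.

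Traf1, an adaptor without a RING domain that joins TRAF2 complexes, had the highest CPM of the family. It fell from 395.0, 494.2 and 494.7 CPM in WT to 264.2, 259.2 and 294.4 CPM in IRF4-deficient replicates. The groups were far apart, and the level was 1.69-fold lower (log2 fold change -0.76, SE 0.10, adjusted p = 9.62e-06). Traf1 lies on the minus strand of chromosome 2 at 34941750 to 34961772.

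Traf2, the scaffold that brings the ubiquitin ligases cIAP1 and cIAP2 to the receptors, was called lower by a smaller amount. Its values were 52.6, 46.7 and 42.9 CPM in IRF4-deficient cells and 59.9, 65.3 and 61.9 CPM in WT replicates, a 1.32-fold difference (log2 fold change -0.39, SE 0.13, adjusted p = 0.0338). The call did not hold with the immediate early index (0.0504) or the red pulp index (0.758), nor in 5 of the 6 fits without 1 library (between 0.0568 and 0.139 without IRF4-deficient replicate 2 or 3 or any 1 WT library), in a range of 0.0246 to 0.758. With the red pulp index the log2 fold change was -0.17.

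Traf6, which serves CD40 and RANK as well as Toll-like receptors, was at 121.8, 110.9 and 131.6 CPM against 132.8, 156.7 and 156.7 CPM and was not called (log2 fold change -0.29, SE 0.10, adjusted p = 0.0542, called in 5 of 17 alternatives, which ranged from 0.0216 to 0.321). IRF4-deficient replicate 3 and WT replicate 1 nearly touched. Traf3, which keeps the noncanonical kinase NIK low, was at 135.7, 123.7 and 137.3 CPM against 137.5, 132.3 and 150.4 CPM, with overlapping groups (adjusted p = 0.620). Ripk1, the kinase downstream of TNFR1, held 82.4, 83.4 and 83.2 CPM against 85.1, 87.7 and 83.9 CPM, groups that do not overlap but differ by 1.03-fold on average (adjusted p = 0.821). Traf7 stood at 61.2, 70.0 and 52.0 CPM against 61.8, 63.9 and 63.9 CPM (adjusted p = 0.830). Tradd, the adaptor of TNFR1, stood at 7.27, 12.0 and 8.24 CPM against 12.3, 7.82 and 7.79 CPM (adjusted p = 0.971). Traf5 stood at 5.61, 5.56 and 6.01 CPM against 7.75, 8.91 and 10.2 CPM, groups that do not overlap, but was not called (log2 fold change -0.64, adjusted p = 0.122). Traf4 stayed between 5.36 and 10.2 CPM and was not called either.

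**Figure D3:**
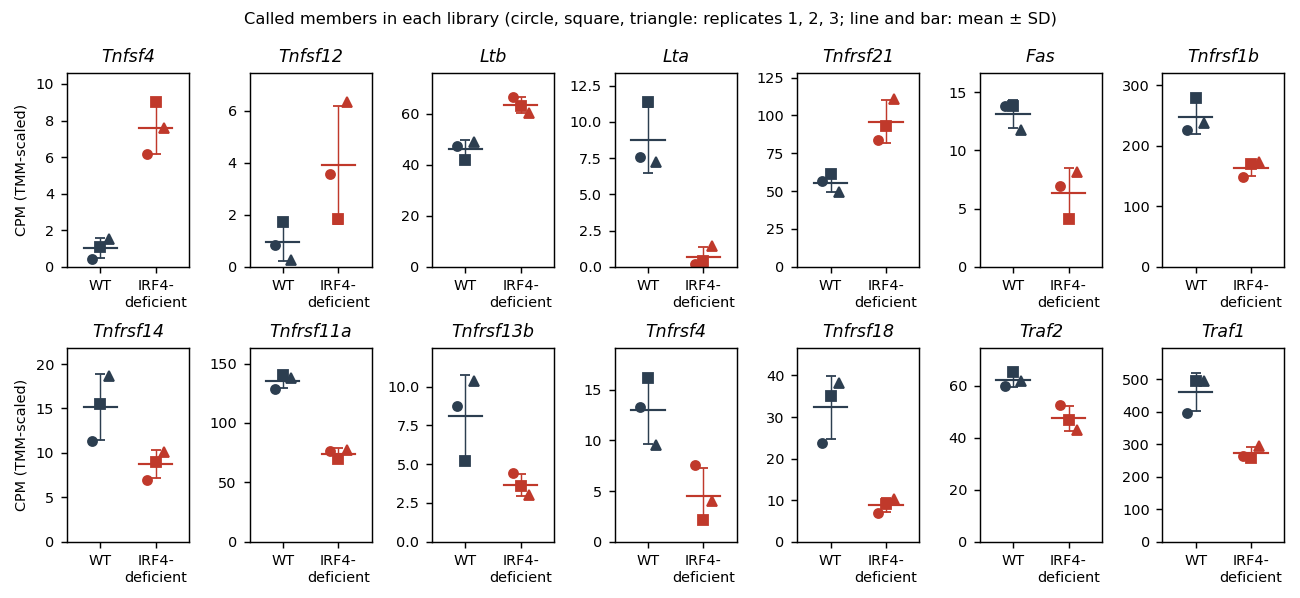
CPM of the 14 called family genes in each library, 1 panel per gene with a vertical axis from 0; points are replicates 1 to 3 (circle, square, triangle), and the line and bar are mean ± SD. The groups do not overlap in any panel, and the gap is narrowest for Tnfsf12, where IRF4-deficient replicate 2 (1.85 CPM) is just above WT replicate 2 (1.73 CPM).

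Levels can be compared between genes only per length. In WT cDC2s, Tnfrsf1b was first at 64.7 ± 7.38 RPKM, followed by Tnf (56.0 ± 20.2 RPKM), Traf1 (52.3 ± 6.51 RPKM), Ltb (30.4 ± 2.43 RPKM), Cd40 (23.4 ± 3.80 RPKM) and Tnfrsf11a (22.6 ± 1.06 RPKM). Tnf did not differ from either of its neighbours in this order beyond its own SD. In the run of Cd40, Tnfrsf11a, Tnfrsf18 (21.2 ± 4.98 RPKM) and Tnfrsf1a (20.6 ± 2.27 RPKM), each pair of neighbours differed by less than the larger SD of the pair. In IRF4-deficient cells the order was Tnfrsf1b (42.9 ± 3.46 RPKM), Ltb (41.7 ± 2.09 RPKM), Traf1 (30.9 ± 2.16 RPKM), Tnf (23.4 ± 7.41 RPKM) and Tnfrsf21 (23.4 ± 3.41 RPKM). Ltb was thus level with Tnfrsf1b there, within an SD, and Tnfrsf18 was at 5.78 ± 1.15 RPKM. Tnfsf13b was lowest in both groups, at 0.0753 RPKM in WT.

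Summed by role, the TRAF-binding receptors held 116.8, 122.8 and 126.2 RPKM in IRF4-deficient and 170.5, 203.7 and 195.6 RPKM in WT replicates 1 to 3, with no overlap. The adaptors held 102.3 ± 1.63 RPKM against 132.7 ± 7.49 RPKM, the ligands 87.8 ± 6.34 against 113.3 ± 19.8 RPKM and the death domain receptors 46.5 ± 4.41 against 41.1 ± 1.77 RPKM (mean ± SD, n = 3 each). The ligand and death domain sums overlap between groups, and the former is mostly Tnf and Ltb. In the adaptor sum, Traf1 differed most (30.9 against 52.3 RPKM), and 7 of the 9 adaptors were not called. In the TRAF-binding sum, Tnfrsf1b, Tnfrsf18 and Tnfrsf11a differed most, and 6 of the 12 receptors were not called.

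**Figure D4:**
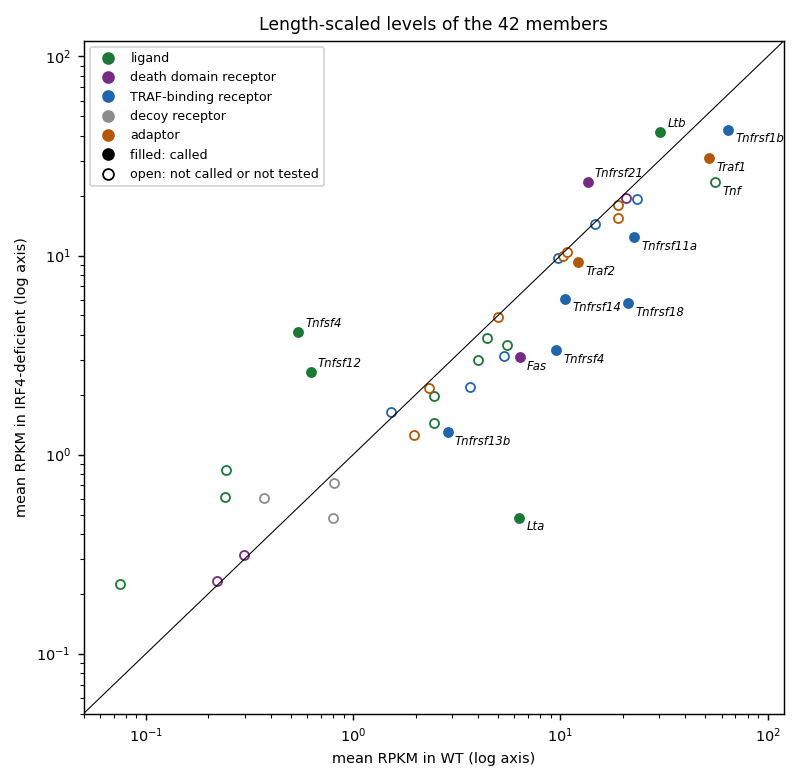
Mean RPKM of each of the 42 family genes in WT (horizontal, log axis) and IRF4-deficient cells (vertical, log axis), coloured by role and filled where called; the line marks equal levels. Most genes lie near the line, Lta lies far below it (6.32 against 0.483 RPKM) and Tnfsf4 far above it (0.544 against 4.12 RPKM).

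Genes linked to the signal below the receptors were listed by arm, 55 in all, of which 50 were tested. They include genes that carry it, genes that restrain it, shedding genes and further superfamily genes. In IRF4-deficient cells 5 of the 50 were higher (Nfkb1, Tnip1, Casp8, Rhbdf2 and Relt) and 10 lower (Map3k14, Chuk, Birc2, Birc3, Rel, Nfkbie, Tnfaip3, Cyld, Tank and Trafd1), beside the 9.87% and 10.5% of all genes, and the median log2 fold change was -0.04. Nfkb1, Rel, Tnfaip3 and Trafd1 were called in all 17 alternatives, while Chuk, Birc2, Nfkbie, Cyld, Tank and Casp8 lost the call with the red pulp index and in no other. With that index 1 gene of the 50 was called higher and 5 lower.

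In the noncanonical NF-kB arm, which RANK, CD40 and the lymphotoxin beta receptor use, 4 of 6 genes fell. The list includes the ubiquitin ligases cIAP1 and cIAP2, and a count of RNA decreases gives no direction for the signal of the arm. Birc2, which codes for cIAP1, was at 150.8, 120.1 and 127.6 CPM in IRF4-deficient cells and at 195.7, 234.7 and 252.4 CPM in WT replicates, with the groups far apart (log2 fold change -0.78, SE 0.11, adjusted p = 3.89e-05). Chuk, the kinase IKK alpha, was at 127.9 ± 10.8 CPM against 208.1 ± 21.1 CPM (log2 fold change -0.70, SE 0.10, adjusted p = 4.76e-05). Birc3 (cIAP2) and Map3k14 (NIK) differed less, with log2 fold changes of -0.28 and -0.36 and adjusted p values of 0.0195 and 0.0401. The call of Birc3 was lost without IRF4-deficient replicate 2 or WT replicate 2 and with the red pulp index (range 0.0128 to 0.587). That of Map3k14 was lost with the immediate early index and without IRF4-deficient replicate 1 or 2 or WT replicate 2 (range 0.00857 to 0.274). Nfkb2 and Relb, the transcription factors of the arm, were not called (log2 fold changes 0.07 and 0.02).

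In the canonical arm, 1 of 12 genes rose and 1 fell. Rel, which codes for c-Rel, was at 364.4, 366.2 and 336.7 CPM in IRF4-deficient cells and at 567.6, 708.4 and 665.3 CPM in WT replicates (log2 fold change -0.86, SE 0.09, adjusted p = 7.37e-07). Nfkb1, the precursor of p50, took the opposite direction, with 701.6, 664.9 and 659.3 CPM against 427.5, 451.5 and 473.1 CPM (log2 fold change 0.58, SE 0.08, adjusted p = 1.65e-05). Rela, Ikbkb, Ikbkg and Map3k7 were among the 10 that were not called.

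Of 12 brakes on the pathway, 5 fell and 1 rose. Tnfaip3, the ubiquitin-editing enzyme A20, was at 111.8, 131.4 and 104.2 CPM in IRF4-deficient cells and at 188.1, 228.1 and 232.3 CPM in WT replicates, with no overlap (log2 fold change -0.90, SE 0.11, adjusted p = 6.05e-06). Trafd1, a negative regulator that interacts with TRAF6, fell from 266.5 ± 10.9 to 138.7 ± 19.9 CPM (log2 fold change -0.94, SE 0.10, adjusted p = 1.81e-06). Tank, Nfkbie and Cyld fell by 0.49, 0.34 and 0.34 on the log2 scale, and Tnip1, a partner of A20, was higher by 0.34 (adjusted p = 0.0383). Tnip1 was called in 10 of 17 alternatives, and in 1 of the 6 fits without 1 library, that without IRF4-deficient replicate 2.

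In the death arm 1 of 8 genes rose, Casp8, the caspase activated by Fas and TNFR1, from 156.5 ± 3.09 to 200.8 ± 3.48 CPM (log2 fold change 0.36, SE 0.09, adjusted p = 0.00567). None of the 5 JNK genes was called. Of 3 tested genes that shed TNF, Rhbdf2, the iRhom2 partner of the TNF-cleaving protease, rose from 14.8 ± 1.49 to 23.3 ± 2.60 CPM (log2 fold change 0.65, SE 0.19, adjusted p = 0.0192, but not called without IRF4-deficient replicate 2 or WT replicate 2 or with the red pulp index, range 0.0104 to 0.181), whereas the protease itself, Adam17, was not called (215.6 ± 18.6 against 222.7 ± 14.2 CPM). Relt, a receptor of the superfamily whose symbol lies outside the rule, was higher by 0.39 on the log2 scale (adjusted p = 0.0354). Relt was called in 9 of 17 alternatives (range 0.0169 to 0.164), and of the 6 fits without 1 library only in that without IRF4-deficient replicate 3.

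**Figure D5:**
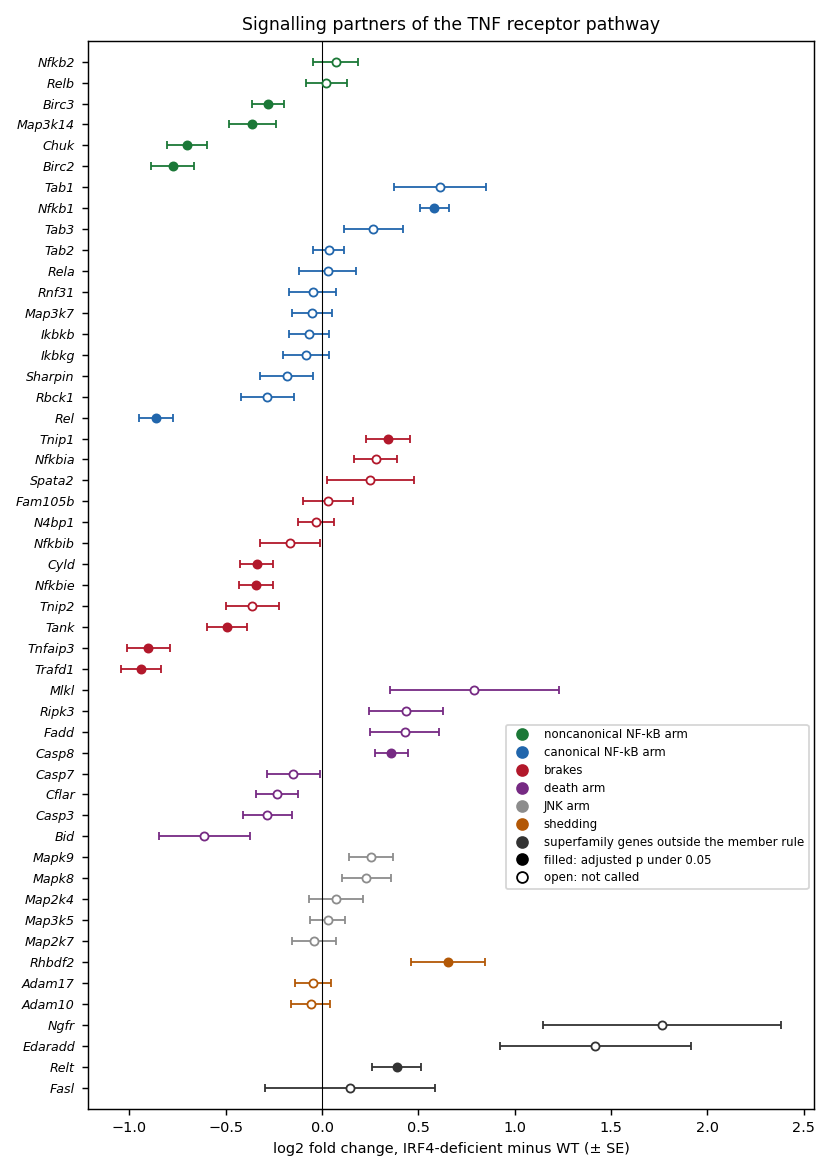
Log2 fold change (IRF4-deficient minus WT, horizontal axis, ± SE) of the 50 tested signalling genes, grouped by arm; filled points are called at an adjusted p under 0.05. The 4 filled genes of the noncanonical arm lie left of 0, while in the canonical arm Nfkb1 (0.58) and Rel (-0.86) lie on opposite sides.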

How the data were processed

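Illumina libraries were made from total RNA of splenic cDC2s, per the labels. The deposited table, made by the authors, holds raw counts by gene symbol in 6 columns, which were matched to 3 IRF4-deficient and 3 WT samples through the labels' titles and source names. The tools were STAR, HTSeq and DESeq2 and the build mm10, per the submitters' processing notes. No annotation or strand setting is stated in the sources used here, so reads of overlapping genes cannot be told apart.

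Genes were filtered with filterByExpr, which left 11934, scaled with TMM factors and tested with edgeR 4.0.16 (glmQLFit and glmQLFTest with robust shrinkage, R 4.3.3). Calls used a Benjamini-Hochberg adjusted p under 0.05 over all tested genes, and fold changes carry a prior count of 0.125. RPKM used union exon lengths of GENCODE M21 (GRCm38, the assembly of mm10). Ratios of group totals carry exact binomial 95% intervals, which cover counting error only. The edgeR steps were tested on simulated counts. Alternatives were DESeq2 1.42.0, 2 other scalings, 2 other filters, limma-voom (limma 3.58.1), no robust shrinkage, a replicate block, each library left out, 2 marker indices as covariates and removal of Rn45s and Malat1.

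All called genes, and all family genes of at least 10 CPM in the mean of either group, are named with their values. The members and lists were chosen with earlier results of these data known. Promoter windows come from RefSeq (GRCm38.p6), and the motifs were chosen after the values were seen.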

Additional observations from a re-analysis of the deposited data

How the results depend on the processing

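Each result was recomputed under 17 alternatives. Of the 14 called family genes none changed sign, 6 were called in all 17, and 8 in all 6 fits without 1 library. Among the limits are the 3 libraries per group, genes under 10 CPM, and an index of red pulp macrophage markers that separates the groups. With that index 1 family gene was called higher (4 in the main analysis) and 5 lower (10), 1 signalling gene higher (5) and 5 lower (10), and 422 of all genes higher (1178) and 485 lower (1251). Without 1 library the family genes called ranged from 3 to 4 higher and from 6 to 11 lower, the fewest without IRF4-deficient replicate 2. The signalling genes ranged from 3 to 5 higher and from 8 to 12 lower, and all genes from 868 to 1157 higher and from 911 to 1274 lower. Why these counts moved was not tested. Summed markers of mature dendritic cells, monocytes and cDC1s also separate the groups, and no alternative used them as a covariate.

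Whether the replicate numbers pair the samples is not known. After removing group means, same-numbered libraries correlated at -0.01, 0.05 and -0.01, and not every library correlated best with its own number. With 3 libraries per group, these values cannot exclude pairing. The deposited columns number the WT libraries otherwise than the titles used here, and a block on the column numbers was not fitted. With the replicate number as a block, 3 family genes were called higher and 9 lower, and 1090 and 1177 of all genes. Tnfsf12 and Traf2 lost their calls in that fit (adjusted p = 0.0723 and 0.0510), as did Map3k14, Tnip1 and Relt among the signalling genes. The scalings moved the median log2 fold change of all genes by less than 0.1. The filter of 5 CPM left Tnfsf12 and Tnfrsf13b untested.

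The log2 fold change of 10 uncalled genes changed sign in some alternatives, and the cause was not tested. With the red pulp index these were Ltbr (-0.50), Tnfrsf10b (-0.42), Tnfrsf12a (-0.23), Tnfrsf23 (1.13), Tnfrsf9 (0.36), Tnfsf15 (0.0885) and Traf7 (0.106). Ltbr was also at -0.0007 with upper-quartile factors, -0.016 with limma-voom and -0.0041 with the replicate block, and Tradd was at 0.0596 with the immediate early index. Over the fits without 1 library, Ltbr ran from -0.126 to 0.141, Tnfrsf10b from -0.50 to 1.16, Tnfrsf12a from -0.14 to 0.27, Tnfrsf13c from -0.15 to 0.103, Tnfrsf23 from -0.69 to 0.23, Tradd from -0.25 to 0.225, Traf4 from -0.31 to 0.17 and Traf7 from -0.15 to 0.0489.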

Other observations

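Beside the family genes taken by symbol, 8 further genes of the superfamily or its adaptors were looked up, of which 4 were tested. Relt was called higher, as given above. Fasl was not called (log2 fold change 0.14, SE 0.44, edgeR adjusted p = 0.865). Cd40lg and Eda did not pass the filter on low counts, and Edar and Eda2r are not analysed here. The remaining genes, Ngfr and Edaradd, came close to the threshold. Ngfr, the low-affinity nerve growth factor receptor, stood at 2.21, 4.70 and 2.90 CPM in IRF4-deficient and at 0.277, 1.82 and 0.546 CPM in WT replicates 1 to 3. The groups did not overlap, but the gene was not called (log2 fold change 1.77, SE 0.62, edgeR adjusted p = 0.0507). Edaradd, the adaptor of the ectodysplasin receptor, stood at 5.98, 3.21 and 3.34 CPM against 2.49, 1.18 and 1.09 CPM and was not called either (log2 fold change 1.42, SE 0.50, adjusted p = 0.0506). Both Ngfr and Edaradd passed the filter through the IRF4-deficient group, in which they are high, so their difference is in part set by it.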
